A study of Mus musculus with 11 samples.

Results

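The genes described here are *Pigr* and *Fcmr*, which lie side by side on mouse chromosome 1, and 7 genes near them, *Fcamr*, *Yod1*, *Pfkfb2*, *Mapkapk2*, *Dyrk3*, *Eif2d* and *Il10*. *Pigr* and *Fcmr* were chosen because both were higher in the mutant islets in these data, and the other 7 were chosen for their position. Of the 9 genes, 7 had a row in the table of 19329 gene IDs, and *Fcamr* and *Il10* had none. RNA of whole pancreatic islets was sequenced in bulk from chow-fed male C57BL/6N mice aged 14 weeks. The wild-type group had 6 libraries and the mutant group 5, the latter from homozygous carriers of the P33T point mutation of *Pdx1*, named PDX1P33T, which replaces a proline by a threonine in the transactivation domain of this beta cell transcription factor. The mutation is in every cell from the germ line on, the islets were kept in culture before lysis, and the study calls the wild-type animals littermates while also stating that the cohort was bred from homozygous matings, so it is not clear which animals shared a litter. The legend of the study speaks of 6 individual mice for a biological replicate, so a library may be a pool of mice, and n counts libraries here.

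*Pigr* encodes the polymeric immunoglobulin receptor, which carries dimeric IgA and pentameric IgM across epithelial cells and releases them with its cleaved extracellular part, the secretory component. *Fcmr* encodes the Fc receptor for IgM, found mainly on B cells, and *Fcamr* a receptor that binds both IgA and IgM. The 3 receptors form a small family that sits together next to the *Il10* cytokine cluster, and transcription of *Pigr* in epithelia is known to respond to interferon, tumour necrosis factor and interleukins through IRF, NF-kB and E-box binding factors.

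In GENCODE vM21 on GRCm38 the 9 genes spanned 498.5 kb in the order *Pfkfb2*, *Yod1*, *Fcamr*, *Pigr*, *Fcmr*, *Il10*, *Mapkapk2*, *Dyrk3* and *Eif2d*. *Fcamr* ended 11.94 kb before *Pigr*, and *Fcmr* began 13.42 kb after it, all 3 on the plus strand. *Pfkfb2* overlapped *Yod1* and *Eif2d* overlapped *Rassf5* on opposite strands. The methods name a strand-specific and an unstranded kit, and it is not given which of them applied here. Reads of these 4 genes thus cannot be assigned with certainty. On the same strand, *Pfkfb2* also overlapped *Gm29427* and *Gm37163*, and *Mapkapk2* overlapped *Gm25549* and *Gm37084*, which a strand-specific kit would not separate.

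The promoters of *Pigr* and *Fcmr* are shown because the genotype difference of these genes chose the neighbourhood. Both are RefSeq sequences of the GRCm38.p6 assembly on the plus strand, each 280 bases long with 250 bases before the start site and 30 after it. *Pigr* is at chr1:130826434-130826713 and *Fcmr* at chr1:130865527-130865806. Capitals mark the E-box CACGTG and the paired IRF half-site AANNGAAA, searched on both strands.
Pigr: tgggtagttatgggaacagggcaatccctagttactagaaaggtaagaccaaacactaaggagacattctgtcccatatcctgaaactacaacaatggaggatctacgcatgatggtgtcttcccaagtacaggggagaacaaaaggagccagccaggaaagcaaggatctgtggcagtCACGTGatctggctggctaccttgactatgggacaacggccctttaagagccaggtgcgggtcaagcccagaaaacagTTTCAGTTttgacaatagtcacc
Fcmr: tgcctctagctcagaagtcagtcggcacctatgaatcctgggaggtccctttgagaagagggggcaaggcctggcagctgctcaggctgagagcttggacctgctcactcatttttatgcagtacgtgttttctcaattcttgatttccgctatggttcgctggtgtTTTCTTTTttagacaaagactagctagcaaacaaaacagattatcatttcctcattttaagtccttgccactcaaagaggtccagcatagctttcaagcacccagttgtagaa
The *Pigr* promoter held the E-box from position -71 to the start site and the IRF letters on the minus strand from position 8. The *Fcmr* promoter held the IRF letters on the minus strand from position -83 and no E-box. Over 32851 mouse promoters of 300 bases, 7.15% held the E-box and 23.92% the IRF letters, so neither is rare. The core letters of the full interferon-stimulated response element, found in 3.443% of promoters, the NF-kB letters GGGNNTTCC, found in 5.82%, and the homeodomain core TAATTA, found in 5.291%, were in neither of the 2 promoters. Of the 8 members with a RefSeq promoter, *Fcamr* also held the IRF and the NF-kB letters, *Mapkapk2* the IRF letters and *Pfkfb2* the E-box. A match describes the letters and not a site in use.

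Values are FPKM, which divide the reads of a gene by its length and by the library size, so levels can be compared between genes. The library size behind each FPKM was recovered from the steps in which values of 1 gene move. It ran from 19311937 to 37094286 reads in wild-type and from 23731684 to 36865206 in PDX1P33T. On a gene of 1 kb, 1 read was worth between 0.027 and 0.0518 FPKM. These sizes were not whole numbers, and the reads summed over all genes of a PDX1P33T library were 92.8% to 109% of them, so the divisor was not simply that sum.

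As deposited, most wild-type values stood on rows of other genes, and a wild-type value was used only after its row had been identified. Pearson's r across genes between a wild-type and a PDX1P33T library was 0.125 to 0.139 as deposited. *Pigr* was 1 of 13 genes of a supplementary sheet of wild-type reads that stood on their own row, and the row of *Fcmr* was found by its reads in that sheet. *Mapkapk2* was matched by its length and level, and 4 members, *Yod1*, *Pfkfb2*, *Dyrk3* and *Eif2d*, have PDX1P33T values only. The fit held 5070 genes. Of the 1673 found through the sheet 1458 (87.1%) had an unadjusted limma p under 0.05, against 176 of 3397 (5.18%) matched by length and level. The genes found through the sheet thus came already enriched for genotype differences, so no single-gene p-value is given for them, and counts of list genes under that p are to be read beside these shares and the 32.2% of all 5070 genes.

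The libraries had the hormone profile of islets. In PDX1P33T, *Ins2* had a mean of 152890 ± 19886 FPKM (SD, n = 5), *Gcg* 10618 ± 1336 FPKM and *Sst* 5720 ± 775 FPKM. *Pdx1* itself was at 79.0 ± 0.881 FPKM in PDX1P33T, a level that says nothing about a point mutation. Within a genotype, r between libraries was 0.936 to 0.995 in wild-type and 0.975 to 0.997 in PDX1P33T. Wild-type replicate 3 stood furthest apart, with a median r of 0.969 to the other wild-type libraries, which had 0.983 to 0.986, and it had the highest sum of endothelial genes. PDX1P33T replicate 2 had a median r of 0.98 to its group, whose other libraries had 0.992. Its 13 listed acinar genes, enzymes of the exocrine pancreas, summed to 141.5 FPKM against 11.7 to 25.2 in the other 4. PDX1P33T replicates 3 and 5 stood apart in B cell genes, as described below.

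*Pigr* was higher in PDX1P33T islets, at 2.55 times the wild-type mean. In wild-type it ran from 1.58 FPKM at the lowest through a median of 2.03 to 2.59 FPKM at the highest, on 169 to 265 reads a library. In PDX1P33T replicates 1 to 5 it was 5.89, 4.02, 5.26, 5.29 and 5.30 FPKM, on 384 to 786 reads. All 5 PDX1P33T libraries lay above all 6 wild-type ones, and replicate 2 was the lowest of the 5. The means were 2.02 ± 0.362 FPKM (SD, n = 6) and 5.15 ± 0.684 FPKM (SD, n = 5), and the log2 fold change of log2(FPKM + 0.1) was 1.31 (SE 0.13). *Pigr* was thus a gene of middle rank, above 70.2% of the 18963 gene IDs with a PDX1P33T value. Its coefficient of variation over the PDX1P33T libraries was 13.3%, where counting alone gives 4.07%.

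*Fcmr* was low in both genotypes and higher in PDX1P33T, at 3.76 times the wild-type mean. In wild-type it ran from 0.0155 FPKM through a median of 0.175 to 0.234 FPKM, on 1 to 11 reads. In PDX1P33T replicates 1 to 5 it was 0.386, 0.340, 0.947, 0.421 and 0.719 FPKM, on 18, 14, 53, 18 and 46 reads. The groups did not overlap, and PDX1P33T replicates 3 and 5 lay well above the other 3. The means were 0.150 ± 0.0832 FPKM (SD, n = 6) and 0.562 ± 0.261 FPKM (SD, n = 5), and the log2 fold change was 1.41 (SE 0.31). At so few reads this value depended on the scale, at 0.43 with a pseudocount of 1, 2.04 with a pseudocount of 0.01 and 2.18 by voom on recovered reads. *Fcmr* stood above 33.4% of the gene IDs, and its coefficient of variation in PDX1P33T was 46.4% against 18.3% from counting.

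**Figure D1:**
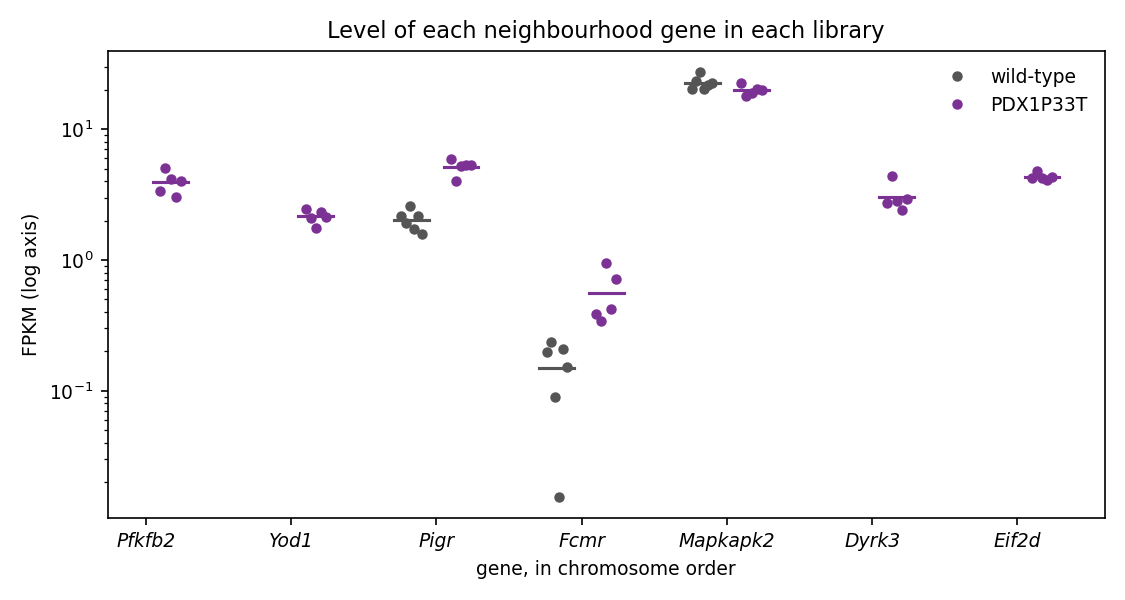
FPKM of the 7 neighbourhood genes with a row, on a log axis, 1 point per library and a bar at the group mean, for 6 wild-type and 5 PDX1P33T libraries. *Pigr* (1.58 to 2.59 against 4.02 to 5.89) and *Fcmr* (0.0155 to 0.234 against 0.340 to 0.947) separate by genotype and *Mapkapk2* overlaps, while the genes without grey points have no identified wild-type row.

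Calls needed a fold change of 1.5 or more in limma with an adjusted p (Benjamini-Hochberg) no higher than 0.05. Of the 2 members in the fit, 1 was called higher, *Pigr*, and 0 lower, where 0.0592% of the 5070 genes were called in each direction. Both members had PDX1P33T libraries all above wild-type, as 2.19% of the genes in the fit did and 6.16% of those found through the sheet, and 0 members had them all below, as 2.39% and 6.58% of the genes did. These 2 genes were chosen by this contrast, and nothing is read from the counts. *Fcmr* was not called in the fit or in any alternative that held it, and a filter on a mean FPKM of at least 0.5 removed it. The call of *Pigr* was lost without PDX1P33T replicates 3 and 5 and with the replicate number of the titles as a block, while its log2 fold change was 1.28 and 1.25 there.

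Within PDX1P33T, *Fcmr* was highest in the same libraries as most B cell genes, and *Pigr* was not. Of the B cell markers examined, 12 had a row and *Cr2*, a complement receptor gene, had none. In PDX1P33T replicates 3 and 5 were the highest 2 libraries for 11 of the 12, as they were for 9.59% of all 18963 gene IDs with a value. The exception was *Cd79a*, the most abundant at 10.2 ± 3.11 FPKM, which was highest in replicate 2 at 15.7 FPKM.

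Without *Cd79a*, the 11 other markers had 89, 40, 528, 80 and 578 reads in PDX1P33T replicates 1 to 5, or 2.89, 1.34, 14.3, 2.89 and 14.6 FPKM in sum. With *Cd79a* the 12 summed to 12.6, 17.1, 22.7, 11.8 and 23.1 FPKM. *Ighm*, the heavy chain of IgM, had 14, 2, 109, 14 and 123 reads in these libraries, and *Ighd*, the heavy chain of IgD, 4, 3, 85, 0 and 60. *Ms4a1*, which encodes the B cell surface protein CD20, had 1, 0, 38, 1 and 23 reads. The heavy chain and CD20 genes thus had few reads in 3 libraries and most of their reads in replicates 3 and 5. *Pigr* in those libraries, at 5.26 and 5.30 FPKM, was close to its PDX1P33T mean.

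Wild-type values were found for 3 of the 12 B cell markers, all through the sheet of reads. *Ighm* ran from 0.0873 through 0.136 to 0.569 FPKM in wild-type and was 0.552, 0.0894, 3.58, 0.603 and 3.54 FPKM in PDX1P33T. *Igkc*, the kappa light chain, ran from 0.0507 through 0.650 to 1.36 FPKM and was 1.75, 0.713, 6.53, 1.60 and 7.29 FPKM. *Cd79b*, a signalling chain of the B cell receptor, ran from 0.0524 through 0.132 to 0.276 FPKM and was 0.104, 0.294, 1.49, 0.255 and 1.72 FPKM. For each of the 3 genes the groups overlapped, and only PDX1P33T replicates 3 and 5 lay far above wild-type. Within wild-type, on 1 to 16 reads a gene, *Fcmr* and *Cd79b* were highest in replicates 1, 2 and 5. *Igkc* was highest in replicate 2 and lowest in replicate 4, as *Fcmr* was, while *Ighm* was highest in replicate 1 and lowest in replicate 5. The 3 together summed to 0.255 to 1.69 FPKM in the wild-type libraries. Their log2 fold changes were 1.81, 2.33 and 1.39, and 0 of the 3 were called by limma or by voom. All 3 had an unadjusted p under 0.05, as 87.1% of the genes found through the sheet did.

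Without PDX1P33T replicates 3 and 5, a choice made after these values were seen, *Fcmr* was at 0.382 ± 0.0407 FPKM (SD, n = 3), 2.56 times wild-type, and the 3 libraries left, from 0.340 to 0.421 FPKM, still lay above all wild-type ones. Its log2 fold change was 1.03 (SE 0.32) in place of 1.41. *Pigr* was at 5.06 ± 0.953 FPKM (SD, n = 3), 2.51 times wild-type. The B cell genes also kept higher means than wild-type without these libraries, *Igkc* at 2.17 times (log2 fold change 1.39), *Ighm* at 1.81 times (0.59) and *Cd79b* at 1.49 times (0.40), with overlapping groups. The part of B cell RNA in the *Fcmr* result was not tested. In bulk RNA, fewer cells of a type and less RNA per cell cannot be told apart.

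**Figure D2:**
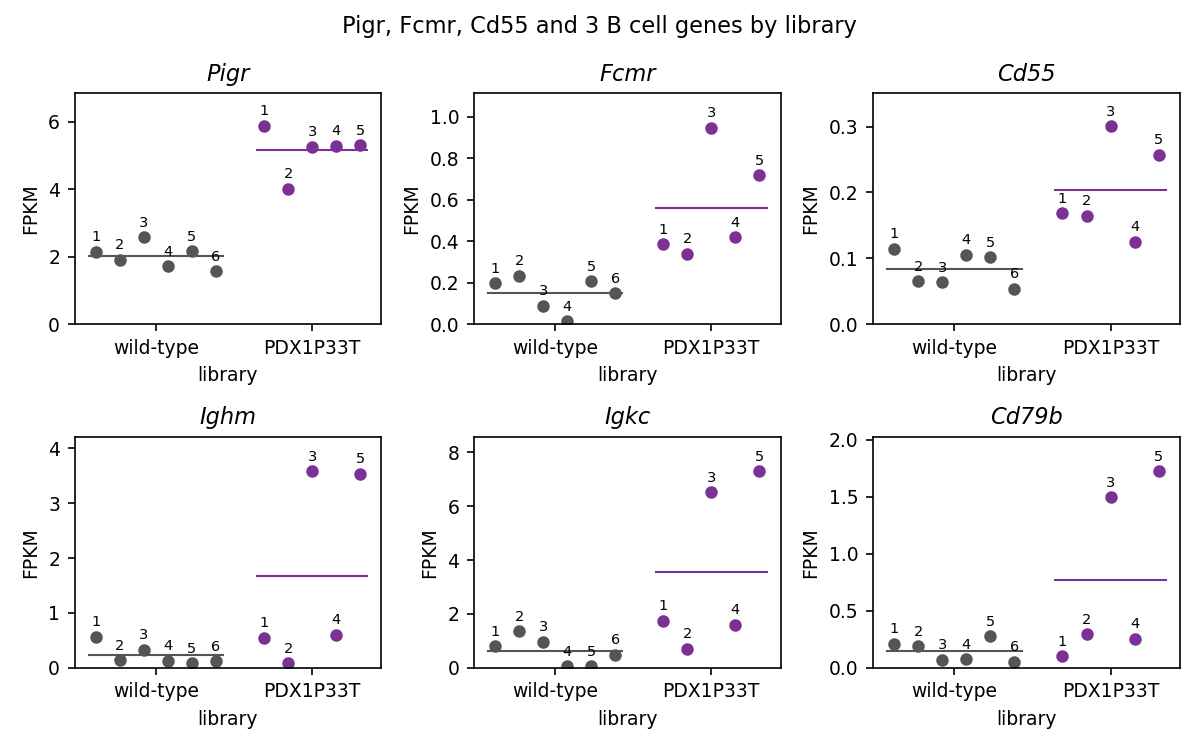
FPKM of *Pigr*, *Fcmr*, *Cd55* and the B cell genes *Ighm*, *Igkc* and *Cd79b* in each library, numbered by replicate, with a line at the group mean. PDX1P33T replicates 3 and 5 are the highest for *Fcmr* (0.947 and 0.719), *Cd55* and the B cell genes, whereas *Pigr* is at 5.26 and 5.30 there and lowest in replicate 2 (4.02).

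Markers of other cell types that could hold *Pigr* were set beside it. Of 14 listed ductal markers 13 had a row, *Onecut1* had none, and *Krt18*, a keratin, was the most abundant at 126 ± 15.9 FPKM. The 13 summed to 491, 424, 449, 483 and 451 FPKM in PDX1P33T replicates 1 to 5. The low sum of replicate 2 came mainly from the keratins *Krt18* and *Krt8*, while *Spp1* was highest there at 79.7 FPKM. The levels of duct genes differed widely, from *Spp1* at 73.5 ± 6.47 FPKM and *Krt7* at 58.9 ± 4.72 FPKM through *Krt19* at 1.87 ± 0.44 FPKM and *Sox9* at 0.319 ± 0.141 FPKM to *Cftr*, the duct chloride channel, at 0.0202 ± 0.0173 FPKM. Of the 4 ductal genes in the fit, *Ambp* differed most with a log2 fold change of 0.39, the median was 0.04, and 0 were called by limma or voom, with 1 at an unadjusted p under 0.05. These 4 summed to 58.4 to 79.999 FPKM in wild-type and 74.3 to 87.1 FPKM in PDX1P33T, and the groups overlapped. *Epcam*, an epithelial adhesion gene on the same list, had a wild-type row only under the narrower limits used for *Mapkapk2*. It ran from 53.3 through 75.1 to 81.04 FPKM in wild-type and was 81.2, 84.1, 81.7, 81.12 and 81.3 FPKM in PDX1P33T replicates 1 to 5. All 5 PDX1P33T libraries thus lay above wild-type, the lowest by a small margin, as in 2.19% of the 5070 genes in the main fit. *Epcam* had a log2 fold change of 0.19 (SE 0.11) and a limma adjusted p of 0.695. The part of duct or other epithelial cells in the *Pigr* result was not tested. The 13 acinar genes, with *Ctrb1* the most abundant at 12.0 ± 16.6 FPKM, were highest in replicate 2, where *Pigr* was lowest, and *Ctrc*, *Rbpjl* and *Ptf1a* had no row. None of them had a wild-type row in the fit.

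Macrophage and endothelial genes had lower means in PDX1P33T, with no calls. All 5 macrophage genes in the fit came from the sheet, whose genes had a median log2 fold change of -0.32, and their own median was -0.65, led by *Csf1r*, the CSF1 receptor, at -0.68. The 5 summed to 24.5 to 65.3 FPKM in wild-type and 19.4 to 29.7 FPKM in PDX1P33T, highest in wild-type replicates 2 and 3. The 6 endothelial genes had a median of -0.69, led by *Eng*, the TGF-beta coreceptor endoglin, at -0.77, and summed to 41.1 to 94.0 FPKM in PDX1P33T. In wild-type they summed to 278 FPKM in replicate 3 and to 54.4 to 118 FPKM in the other 5 libraries. Without wild-type replicate 3 the median log2 fold change was -0.43 and that of *Eng* was -0.50. limma and voom called 0 of either list. An unadjusted p under 0.05 was found for 4 of the 5 macrophage genes, all 5 found through the sheet (87.1%), and for 1 of the 6 endothelial genes. *Fcgr1*, the high-affinity IgG receptor, had all 5 PDX1P33T libraries below wild-type, as 6.58% of the genes found through the sheet did. It was at 0.833 to 0.934 FPKM against 0.994 to 2.20 FPKM, with a log2 fold change of -0.65. The most abundant were *C1qa* with 72.4 ± 3.79 FPKM and *Plvap* with 56.0 ± 15.9 FPKM in PDX1P33T, neither with a wild-type row. Their part in the *Fcmr* and *Pigr* results was not tested. Of 12 T cell markers only 5 had a row, the CD3 chain genes *Cd3e* and *Cd3d* had none, and the 5 summed to 0.644 to 0.931 FPKM in PDX1P33T.

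The 7 members with PDX1P33T values differed in level by more than an order of magnitude. *Mapkapk2*, which encodes the kinase MK2 downstream of p38, was the highest, followed by *Pigr*, *Eif2d*, *Pfkfb2*, *Dyrk3*, *Yod1* and *Fcmr*. The ranges of *Mapkapk2* and *Pigr* did not touch, nor did those of *Yod1* and *Fcmr*. Each of the other neighbours in that order overlapped, although *Pfkfb2* exceeded *Dyrk3*, and *Dyrk3* exceeded *Yod1*, in 5 of 5 libraries.

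*Mapkapk2* had overlapping groups and was not called. In wild-type it ran from 20.2 through 22.2 to 27.3 FPKM, and in PDX1P33T replicates 1 to 5 it was 22.3, 17.9, 19.0, 20.4 and 19.8 FPKM. Wild-type replicate 3 was the highest and PDX1P33T replicate 2 the lowest, with means of 22.6 ± 2.62 FPKM (SD, n = 6) and 19.9 ± 1.66 FPKM (SD, n = 5). The log2 fold change was -0.18 (SE 0.09) with a limma adjusted p of 0.639, under limits at which 0.12% of 6685 genes were called, and the two-sided exact permutation test gave p = 0.0563, where the smallest it can give is 0.00433. Its wild-type row was found only under limits chosen after the values were seen, which accept a row whose mean is within 4-fold and so could not have shown a larger change. The other genes of its length were *Mecr* at 3.07 FPKM and *Olfr558* at 0.278 FPKM in PDX1P33T.

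*Pfkfb2* encodes an isoform of the enzyme that makes and breaks down fructose 2,6-bisphosphate, an activator of glycolysis, and was at 3.36, 5.05, 4.18, 3.03 and 4.00 FPKM in PDX1P33T replicates 1 to 5, a mean of 3.92 ± 0.782 FPKM (SD, n = 5). It was the most abundant of the 4 PFKFB genes, and of the other 3, *Pfkfb3* was at 1.13 ± 0.186 FPKM, *Pfkfb4* at 1.15 ± 0.118 FPKM and *Pfkfb1* at 0.154 ± 0.0621 FPKM. No wild-type row had its length. *Dyrk3*, a kinase that dissolves condensates such as stress granules, was at 2.72, 4.35, 2.80, 2.41 and 2.90 FPKM, a mean of 3.04 ± 0.756 FPKM (SD, n = 5). Both genes were highest in replicate 2 and lowest in replicate 4. A wild-type row of the length of *Dyrk3*, from 1.71 to 3.56 FPKM, could also be *Tmem80*, which was at 5.68 FPKM in PDX1P33T, and it was not used.

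*Eif2d*, a translation initiation and recycling factor, was the steadiest member, at 4.26, 4.77, 4.26, 4.09 and 4.28 FPKM, with a mean of 4.33 ± 0.257 FPKM (SD, n = 5). Its coefficient of variation of 5.94% stood against 3.3% from counting. *Yod1*, a deubiquitinase that works with the ATPase p97 in protein quality control, was at 2.46, 2.10, 1.76, 2.35 and 2.12 FPKM, with a mean of 2.16 ± 0.27 FPKM (SD, n = 5). Unlike *Fcmr*, *Yod1* was lowest in replicate 3. The single wild-type row of its length, at 5.24 to 6.51 FPKM, lay nearer to *Ddx54* at 5.11 FPKM, and that of the length of *Eif2d*, at 0.977 to 1.77 FPKM, nearer to *Zbtb2* at 1.24 FPKM.

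**Figure D3:**
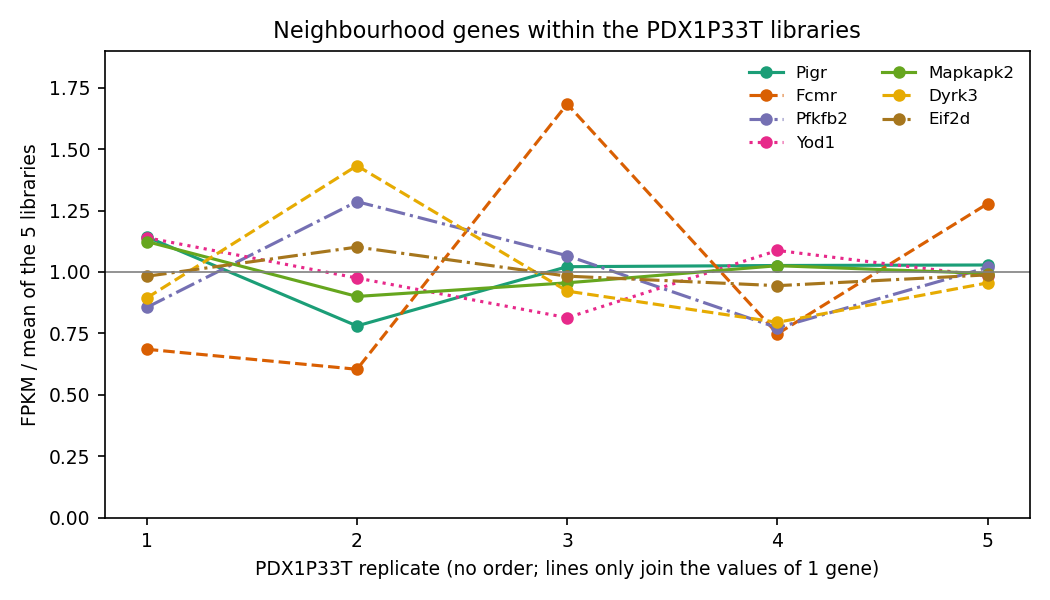
FPKM of each member divided by its mean over the 5 PDX1P33T libraries, by replicate, with lines that only join the values of 1 gene. *Fcmr* peaks in replicates 3 and 5 (0.947 and 0.719 FPKM), *Dyrk3* and *Pfkfb2* in replicate 2 (4.35 and 5.05 FPKM), where *Pigr* is lowest (4.02 FPKM).

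Further along the chromosome, 21 other listed genes lay within 2 Mb of *Pigr*, 17 of them had a row and 6 were in the fit. limma and voom called 0 of the 6. An unadjusted p under 0.05 was found for 5, and 5 of the 6 came from the sheet, where 87.1% of genes had one, against 32.2% over all genes in the fit. *Cd55*, which encodes a complement inhibitor and lies 363.9 kb before *Pigr*, was the only one of the 6 with a higher mean in PDX1P33T. Its wild-type libraries ran from 0.0541 through 0.0835 to 0.115 FPKM, on 6 to 19 reads, and in PDX1P33T replicates 1 to 5 it was 0.169, 0.165, 0.300, 0.126 and 0.257 FPKM. All 5 PDX1P33T libraries lay above wild-type, as for 6.16% of the genes found through the sheet, from which *Cd55* came. Replicates 3 and 5 were again the highest. The means were 0.0843 ± 0.026 FPKM (SD, n = 6) and 0.203 ± 0.0725 FPKM (SD, n = 5), and the log2 fold change was 0.70 (SE 0.18), or 0.47 without replicates 3 and 5.

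The other 5 had lower means in PDX1P33T. *Rab29*, a small GTPase of the trans-Golgi, differed most with a log2 fold change of -0.75 (SE 0.22), followed by *Rab7b* with -0.56, *Srgap2* with -0.50, *Ikbke*, the kinase IKK-epsilon, with -0.33 and *Rassf5* with -0.16, and in each the groups overlapped. Over the 6 the median was -0.41, beside -0.06 over all 5070 genes and -0.32 over those found through the sheet. *Nucks1*, the most abundant of the 21, was at 12.5 ± 0.391 FPKM in PDX1P33T. *Nucks1*, *Elk4* and *Cdk18* had a wild-type row only under the narrower limits, with log2 fold changes of 0.15, -0.28 and -0.09. The interleukin genes *Il24*, *Il20* and *Il19*, between *Fcmr* and *Il10*, had no row, and *Ctse* was listed at 0 in PDX1P33T. *Cr1l*, *Cr2* and *Cd46*, listed with them, lie over 64 Mb away.

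**Figure D4:**
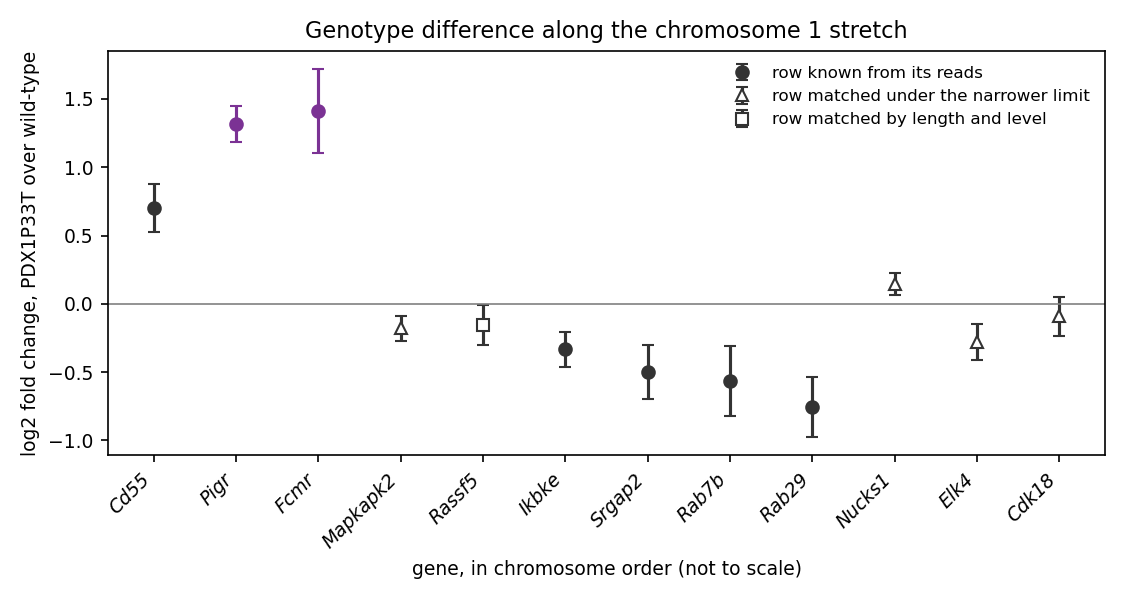
Log2 fold change of log2(FPKM + 0.1), PDX1P33T over wild-type, with SE bars, for the 12 genes within 2 Mb of *Pigr* with a wild-type row, in chromosome order and not to scale, with marker shapes for how the row was found. *Cd55* (0.70), *Pigr* (1.31) and *Fcmr* (1.41) lie above 0, and the genes after *Fcmr* lie between -0.75 and 0.15.

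Other genes of the same pathways were given from lists. Of 23 immunoglobulin and Fc receptor genes 8 were in the fit and 7 had lower means in PDX1P33T, led by *Fcgr4*, an activating IgG receptor, with a log2 fold change of -0.70. The 8 summed to 41.6 and 56.0 FPKM in wild-type replicates 2 and 3, against 20.1 to 26.0 FPKM in the other wild-type libraries and 19.4 to 24.4 FPKM in PDX1P33T. *Fcgr4* itself was 3.88 FPKM in wild-type replicate 3 and 0.922 to 1.37 FPKM in the others. Without that library its log2 fold change was -0.43 and the median of the list -0.36 in place of -0.59. *Fcer1g*, the signalling chain shared by Fc receptors and the most abundant at 12.0 ± 1.63 FPKM in PDX1P33T, was at -0.48, while *Trim21*, the cytosolic antibody receptor, was at 0.31. limma and voom called 0 of the 8, and 5 had an unadjusted p under 0.05, as 32.2% of all genes and 87.1% of those found through the sheet did. Of these 8, 6 came from the sheet. Of the 24 listed regulators of *Pigr* transcription, all had a row and 5 were in the fit, all with lower means, of which *Ltbr*, the lymphotoxin beta receptor, differed most at -0.34. *Tnfrsf1a*, the tumour necrosis factor receptor, was the most abundant at 29.1 ± 5.27 FPKM and *Irf1* was at 7.78 ± 0.65 FPKM in PDX1P33T. *Stat6*, which relays interleukin 4 and came from the sheet, had all 5 PDX1P33T libraries below wild-type, as 6.58% of the genes found there did. It was at 4.96 to 6.30 FPKM against 6.36 to 7.52 FPKM, with a log2 fold change of -0.27. limma and voom called 0 of these 5, and 2 had an unadjusted p under 0.05, where 2 of the 5 came from the sheet.

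Among 14 genes of interleukin 10 and its signalling, *Il10ra*, the ligand-binding receptor chain, differed most of the 4 in the fit at -0.82, and *Stat3* was the most abundant at 17.5 ± 1.67 FPKM in PDX1P33T. Of 14 genes of the p38 and MK2 pathway 4 were in the fit, all with lower means, led by *Mapk11* at -0.75. The 4 summed to 25.5 FPKM in wild-type replicate 3, against 11.7 to 16.7 FPKM in the other wild-type libraries and 10.6 to 14.2 FPKM in PDX1P33T, and without it *Mapk11* was at -0.49 and the list median at -0.34 in place of -0.53. *Mapk14*, which encodes p38 alpha, was the most abundant of the pathway at 26.5 ± 1.74 FPKM. Each of these lists had 0 calls by limma or voom and 1 gene at an unadjusted p under 0.05. Of the PFKFB genes *Pfkfb3* was at -0.37, of the DYRK kinases *Dyrk1b* at -0.23, of the EIF2D partners *Mcts2* at 0.22 and of the YOD1 partners *Vcp*, the p97 ATPase, at -0.24. In these 4 lists, with 2, 2, 1 and 3 genes in the fit, 0 were called by limma or voom and 0, 0, 0 and 2 were at an unadjusted p under 0.05. In each list 0 of these genes came from the sheet, and 5.18% of all genes matched by length and level had such a p.

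The genes whose deviations from the genotype means were most like those of *Pigr* over the 11 libraries were *Rabep2* (r = 0.894), *Chd8* (r = 0.878) and *Rgs3* (r = 0.862), out of 5069 genes with a 99th percentile of 0.746. *Fcmr* had r = 0.215. All genes of a library share its depth and makeup, and these values are descriptions.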

How the data were processed

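RNA of whole islets was sequenced in 6 wild-type and 5 PDX1P33T libraries. Per the submitters' processing notes and the methods, the authors used fastp 0.23.1, HISAT2 2.0.5 and featureCounts 1.5.0-p3 with the GRCm39 build, kept genes detected in 80% or more of the libraries of either genotype, and deposited FPKM. The notes also name DESeq2 1.20.0, whose results were not used here. Gene lengths and reads were recovered from the steps of the FPKM. Wild-type rows were identified by a supplementary sheet of wild-type reads, held here in part (1712 genes), or by the same length with at least 100 reads in each genotype, mean levels no more than 4-fold apart and every other candidate over 16-fold away (3397 genes). Of the matches that the sheet could check, 403 were right and 0 wrong. A match by level cannot show a change over 4-fold. The limits for *Mapkapk2* (other candidates over 4-fold away) were added after the values were seen.

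limma 3.58.1 in R 4.3.3, with trend and robust options, was fitted to log2(FPKM + 0.1), and the Benjamini-Hochberg adjustment ran over 19329 gene IDs, with genes not put back taken as unchanged. The fit was tested on simulated counts. Genes at 0 in every PDX1P33T library were left out. Named genes were the 9 members, the gene of largest change and the most abundant gene of each list, and the 3 genes most like *Pigr*. *Cd55*, the cell type genes set beside *Fcmr* and *Pigr* and other list genes were named after their values were seen. The members and lists were chosen with earlier results of these data known. Promoters are RefSeq sequences of GRCm38.p6, with 250 bases before the start and 30 after it printed, and gene order is from GENCODE vM21. No GRCm39 genome was used. Variation expected from counting covers counting error only, and p-values set a genotype difference against the spread between these libraries.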

Additional observations from a re-analysis of the deposited data

Results flagged for a closer look

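Among 28 groups of libraries of the 18 genes examined for a single library far from the rest, 2 had such a library, and chance gives about 1 in 20. Both were PDX1P33T replicate 2. *Dyrk3* was 4.35 FPKM there against 2.41 to 2.90 FPKM in the other 4 libraries. *Eif2d* was 4.77 FPKM there against 4.09 to 4.28 FPKM. This library also had the highest sum of acinar genes, and their part in these values was not tested.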

How the results depend on the processing

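The log2 fold change of *Pigr* stayed between 1.25 and 1.40 with 1 library left out and was 1.03 with a pseudocount of 1. That of *Fcmr* was 1.21 to 1.54 with 1 library left out, 2.04 with a pseudocount of 0.01, 0.43 with a pseudocount of 1 and 2.18 by voom on recovered reads, and it could not be given with a mean FPKM of at least 0.5, which removes the gene. With 1 library left out the genes called higher numbered 1 to 3, those called lower 2 to 5, and the members called 1 and 0. The main counts were 3 genes higher, *Pigr* among them, and 3 lower. Genes called higher fell to 1 with a pseudocount of 0.01, with a mean FPKM of at least 0.5 and with the replicate block by library names. Adjusting over the genes in the fit gave 6 higher and 7 lower, and the genes found through the sheet alone gave 1 lower. Without PDX1P33T replicates 3 and 5, added after the data were seen, 0 genes and 0 members were called higher. With the replicate block by titles 0 members and 0 genes were called higher and 1 lower. The labels do not say whether the numbers in the titles pair the samples. Deviations of same-numbered libraries had r from -0.55 to 0.07, and 0 of 5 PDX1P33T libraries correlated best with their own number. Differences in makeup between libraries also enter these values, so they cannot decide whether samples were paired. *Mapkapk2*, held only under the narrower limits, was not called in any setting run with them. Its log2 fold change was -0.22 to -0.12 with 1 library left out. Few reads limit *Fcmr* and *Cd55*, with as little as 1 and 6 reads in a wild-type library.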
